A study of Homo sapiens with 2 samples.

Results

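Kallikreins and membrane serine proteases were examined in H6c7, a near-normal line of human pancreatic duct epithelium immortalised by papillomavirus genes, and in a derivative of H6c7 that carries an introduced K-ras oncogene. The gene set comprised the kallikreins KLK5, KLK6, KLK7, KLK8, KLK10 and KLK11, the membrane proteases ST14, PRSS8 and HPN, and the protease-activated receptor F2RL1. Every probe set that the array annotation pairs with exactly 1 of these symbols was taken, which gave 12 probe sets of 9 genes, out of 19065 probe sets of 11963 genes. F2RL1 was not analysed here, because the annotation used pairs no probe set with it. The lines share the H6c7 background and differ in the oncogene, and each was measured on 1 Affymetrix expression array. The labels name no vector control, give no mutation or promoter of the oncogene, and do not state if its carriers are a clone or a pool.

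Kallikreins are secreted trypsin- or chymotrypsin-like serine proteases, made as inactive precursors and encoded side by side in a single cluster. In stratified epithelium several of them activate one another and cut the adhesion proteins of desmosomes. Matriptase, encoded by ST14, prostasin, encoded by PRSS8, and hepsin, encoded by HPN, are anchored in the plasma membrane, where matriptase and prostasin can activate each other and are held in check by the Kunitz inhibitors SPINT1 and SPINT2. Several of these enzymes can activate the receptor encoded by F2RL1, whose own cut end serves as its ligand.

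Of the 9 genes, PRSS8 alone was at least 2-fold higher in the K-ras line, and none was lower by that factor. PRSS8 was 5.48-fold higher. The kallikreins were near or below the limit of measurement on both arrays, and ST14 had nearly the same signal in both lines in its brightest probe set. A ratio was taken only where at least 1 array reached a floor of 46.9, the higher of the medians of the arrays, and a gene below the floor on 1 array has a bound against it. By this rule 6 of the 9 genes had a ratio. Of all 7693 genes with a ratio, 9.97% were at least 2-fold higher and 14.4% lower by that factor, so a count of 1 higher gene among 6 is near the background. By probe set, 1 of 8 with a ratio was higher and none lower, against 10.1% and 14.7% of all 11084. The median log2 ratio was 0.22 over the 6 genes, of which KLK8, KLK10 and HPN are bounds. It was 0.10 over all 7693, which also include bounds. With 1 array per line no difference could be tested and no value has a replicate error. The nearest thing to a repeat is technical, the spread between probe sets of a gene, whose pooled SD of the log2 ratio was 0.46 over 1671 genes with at least 2 such probe sets, each reaching the floor on both arrays.

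The arrays had median signals of 43.9 (parental) and 46.9 (K-ras). The highest signal of the 27 Bacillus subtilis control probe sets on either array was 36.3, and no other bacterial control was counted. Of 10 duct epithelial markers on the array 7 were above the floor on both arrays, among them the keratins KRT18, KRT19 and KRT7, while CFTR, the chloride channel of duct cells, was below it on both. Of these duct markers 9 had a ratio. With K-ras 4 were lower by at least 2-fold, CA2, EPCAM, KRT19 and SOX9, against 14.4% of all genes with a ratio. None was higher by that factor, against 9.97%. The CA2 value is a bound, and another probe set of SOX9 gave a log2 ratio of 0.04. The summed signal of the 10 duct markers was 18516 (parental) and 17036 (K-ras). Of 6 basal and squamous markers 5 had a ratio. At least 2-fold higher were 2, KRT16, as a bound, and SPRR1B, against 9.97% of all genes with a ratio. The summed signal of the basal and squamous markers was 12486 and 21371. Most of it came from KRT14 (6237.1 and 10134.1) and KRT5 (5960.2 and 9397.2), both bright in each line and under 2-fold. No array had any of 4 endocrine markers at the floor. Of 5 acinar markers none was above it on both arrays, and of the 3 with a ratio 1, the trypsin PRSS2, was higher, as a bound. No leukocyte or endothelial marker was above the floor on both arrays, and 3 of 7 fibroblast markers were. The part of these marker differences in the protease values was not tested, and in such bulk RNA fewer cells of a type and less RNA per cell cannot be told apart.

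PRSS8 encodes prostasin, a protease held in the membrane by a lipid anchor and known for activating the epithelial sodium channel and for its part in epithelial barriers. Its only probe set (202525_at) read 140.8 in the parental line and 772.2 with K-ras. Both values lie well above the floor, so the log2 ratio of 2.46 is a ratio and not a bound. PRSS8 ranked 30 from the highest among the 7693 genes with a ratio, and 0.35% of the 5996 genes that reached the floor on both arrays had a higher ratio. The log2 ratio lay between 2.13 and 2.65 under the 11 alternative settings that give one, the lowest with the floor added as a pseudocount and the highest with scaling on maintenance genes. No other probe set of PRSS8 was available to repeat the measurement.

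ST14 encodes matriptase, a transmembrane protease that starts several proteolytic cascades at the epithelial surface. Its 3 probe sets differed. The brightest, 202005_at, read 188.1 on the parental and 195.2 on the K-ras array, a log2 ratio of 0.05. The probe set 216905_s_at had 71.3 and 120.0, a log2 ratio of 0.75. The third, 216906_at, was below the floor on both arrays with signals of 6.3 and 22.7. The pair above the floor thus differed from each other by 0.70 on the log2 scale, and neither reached 2-fold. The pooled SD of 0.46 is that of single ratios about the mean of their gene. A gap between 2 probe sets varies more than that, so 0.70 is not an unusual gap. The ratio of ST14 was within 0.46 of its value of 0.05 under every alternative setting tried, but its sign turned under median centring, to -0.04.

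HPN encodes hepsin, a transmembrane protease best known from liver and prostate. Its probe set 204934_s_at read 47.5 on the parental array, just above the floor, and 44.7 on the K-ras array, just below it. The values differ by less than the gap of either from the highest Bacillus subtilis control, and the bound at a log2 ratio of -0.02 gives no usable fold.

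**Figure D1:**
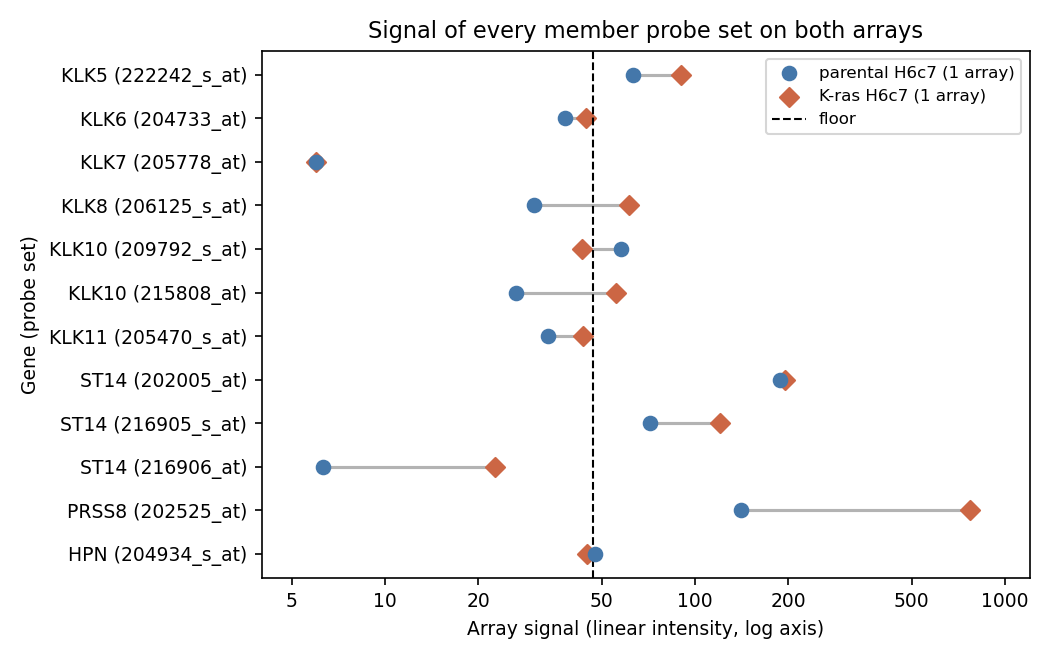
Signal of each of the 12 probe sets on the parental array (circles) and the K-ras array (diamonds), on a log axis, with the floor of 46.9 as a dashed line and 1 array per line, so without error bars. PRSS8 stands well to the right of the floor on both arrays with the widest gap of any probe set above it, from 140.8 to 772.2, while most kallikrein probe sets lie about the floor or to its left.

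The kallikreins were close to the floor as a family. The 7 probe sets of the 6 kallikrein genes ranged in signal from 6.0 to 63.2 on the parental and from 6.0 to 89.8 on the K-ras array. Only KLK5 was above the floor on both arrays. Of the other 6 probe sets, 2 were above the floor on the K-ras array alone, 1 on the parental array alone, and 3 on neither. For comparison, 43.8% of all 19065 named probe sets reached the floor on both arrays and 41.9% on neither.

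KLK5 encodes a trypsin-like enzyme that activates other kallikreins in skin and cuts desmosomal proteins. It read 63.2 on the parental and 89.8 on the K-ras array, a log2 ratio of 0.51. That difference is under 2-fold and of the order of the technical SD between probe sets, which was 0.49 over 612 genes with mean signals under 187.6, 4 times the floor. Among genes that reached the floor on both arrays, 29.4% had a higher ratio than KLK5.

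KLK8 encodes neuropsin, a trypsin-like enzyme of skin and brain. It read 30.2 on the parental and 61.2 on the K-ras array. The parental value lies below the highest Bacillus subtilis control, and the bound against the floor was at least 1.30-fold higher. Taken without the floor the ratio was 2.03-fold, and with a floor at the 30th percentile it was the same, so KLK8 passed the 2-fold threshold under those settings. Under them 20.3% and 13.9% of all genes, respectively, were at least 2-fold higher.

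KLK10 encodes a kallikrein that is often silenced in tumours and elevated in others, and its probe sets went opposite ways. The probe set 209792_s_at read 57.7 on the parental and 43.2 on the K-ras array, a bound of at least 1.23-fold lower. The probe set 215808_at had 26.4 and 55.7, a bound of at least 1.19-fold higher. Each crossed the floor in a different line, so these arrays give no direction for KLK10.

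KLK6, KLK7 and KLK11 were below the floor on both arrays and have no ratio. KLK6, a trypsin-like enzyme found in brain and in several carcinomas, read 38.0 on the parental and 44.4 on the K-ras array. KLK11, also trypsin-like, had 33.5 and 43.5. KLK7, the chymotrypsin-like partner of KLK5 in the outer skin, had 6.0 on both arrays. KLK6 lay above the highest Bacillus subtilis control of 36.3 on both arrays, and KLK11 on the K-ras array alone. With the floor at the 30th percentile KLK6 and KLK11 had log2 ratios of 0.22 and 0.38, both under 2-fold. By the floor as reported, neither the presence nor a difference of these transcripts could be read.

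Higher K-ras signals among dim probe sets were common across the whole array. Ignoring the floor, the K-ras signal was the higher in 9 of the 12 probe sets, lower in 2 and equal to 1 decimal in 1. Among the 6 kallikrein probe sets that fell short of the floor on at least 1 array it was higher in 4. Over the 10718 named probe sets in the same state it was higher in 63.5%, with a median log2 ratio of 0.44. For a probe set above the floor on 1 array alone, the direction is fixed by which array that is. Only probe sets below it on both arrays can go either way. Of these, KLK6 and KLK11 were higher with K-ras and KLK7 was equal, against 66.9% higher over all 7981 such probe sets. The median over all 7 kallikrein probe sets, again without the floor, was 0.38. This set includes KLK5, which was above the floor on both arrays, so the medians cover unlike sets.

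**Figure D2:**
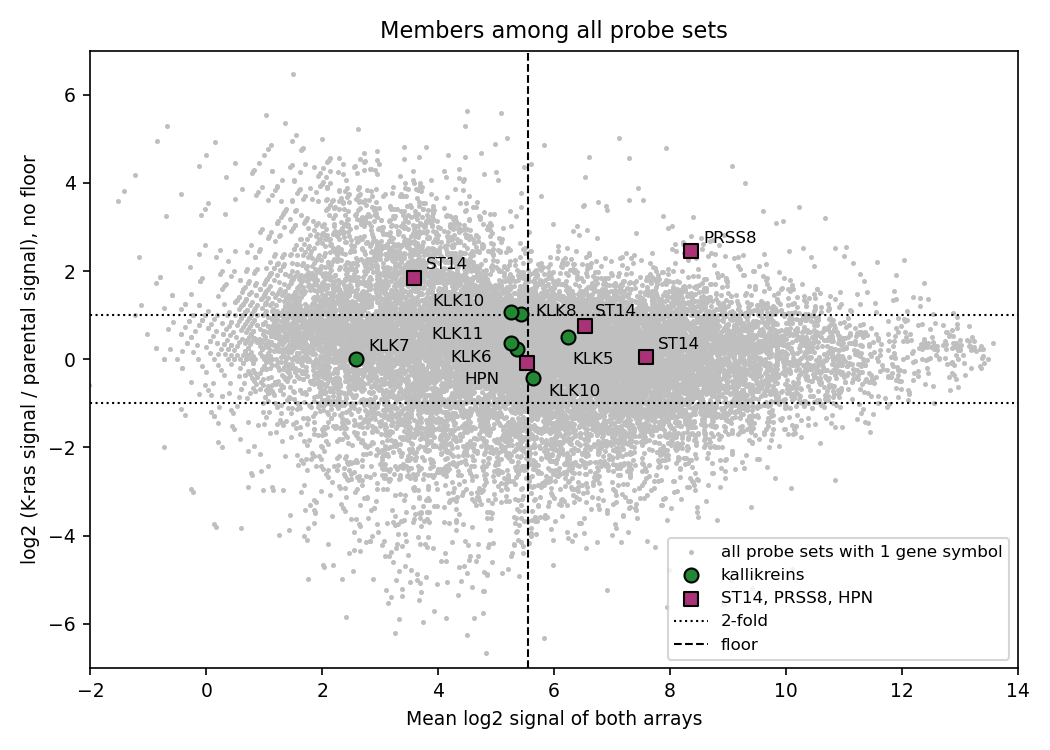
The log2 ratio of K-ras to parental signal, without a floor, against the mean log2 signal of both arrays, for all 19065 named probe sets (grey) with the kallikreins (circles) and ST14, PRSS8 and HPN (squares) marked. PRSS8 lies near the upper edge of the cloud at its signal, the kallikreins lie inside the cloud around or to the left of the floor, and the ST14 probe set with a large ratio is far below the floor.

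The kallikrein cluster on chromosome 19, taken whole, had low signals. In the RefSeq gene order the cluster holds 15 kallikrein genes from KLK1 to KLK14, and 13 have a probe set here. The 13 include the 6 kallikreins described above, so the counts below are not independent of them. KLK5 was the only gene of the 13 above the floor on both arrays, 4 were above it on 1 array and 8 on neither, with signals from 3.2 to 92.2 overall. With the floor as reported none of the 5 with a ratio was at least 2-fold higher or lower. At a floor of the 30th percentile 3 of 10 were higher, KLK1, KLK8 and KLK13, against 13.9% of all genes, and without a floor 5 of 13, against 20.3%. Under quantile normalization 1 of 5, KLK1, was higher, and no setting gave a lower gene. Without regard to the floor the K-ras signal was the higher in 11 of the 13. Among the 12 that fell short of the floor on at least 1 array it was higher in 10, against 66% of all 5967 genes in that state. For the 4 above the floor on 1 array the direction follows from that state itself, so these shares depend on the mix of states. KLK1, tissue kallikrein, which releases kinins, read 32.3 on the parental and 92.2 on the K-ras array, a bound of at least 1.97-fold higher. KLK13 had 28.6 and 69.8, at least 1.49-fold higher. Of the 3 neighbouring genes on either side of the cluster SIGLEC9 alone had a probe set here, with signals of 4.0 and 6.3. PRSS8 and ST14 lie elsewhere, on chromosomes 16 and 11.

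Genes that work with these proteases were followed in 5 lists with 98 genes in all. On the array 81 of them had a probe set, and 42 had a ratio. Of the 42, 8 were at least 2-fold higher and 6 lower, against 9.97% and 14.4% of all genes with a ratio. The median log2 ratio was 0.31 against 0.10 for all genes, and 12 of the 42 values were bounds. Of all called genes 40.9% were higher, and of those in the lists 57.1%. Scaling on 100 maintenance probe sets raised log2 ratios that are not bounds by 0.20 and turned these shares to 56.4% and 75.0%.

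Among other trypsin-like or membrane serine proteases 12 of 23 genes on the array had a ratio, and 4 of these 12 values were bounds. At least 2-fold higher were 4 and none was lower, against 9.97% and 14.4% of all genes with a ratio. The median log2 ratio was 0.69, against 0.10 for all genes. PRSS3, a trypsin resistant to common trypsin inhibitors, read 154.0 on the parental and 944.8 on the K-ras array, 6.13-fold higher, and another probe set gave a log2 ratio of 2.40. PRSS2, another pancreatic trypsin, was at least 4.17-fold higher, from 35.5 to 195.4. Another of its probe sets stood at only 1.24 on the log2 scale, and the bound was 0.68 with the floor at the 70th percentile. Both trypsins rest on _x_at probe sets, which can pick up near-identical trypsin transcripts, so the 2 values are uncertain and may not be separate. TMPRSS15, enteropeptidase, the activator of trypsinogen, had 74.5 and 180.0, a log2 ratio of 1.27 that fell to 0.56 with the floor at the 70th percentile and to 0.90 with the pseudocount. HTRA1, a secreted protease of the matrix, had 122.9 and 254.7, a log2 ratio of 1.05 that fell to 0.95 under median centring and 0.83 with the pseudocount. PRSS22, PRSS23 and PRSS21 had log2 ratios of 0.74, 0.20 and 0.07, all under 2-fold. TMPRSS2 and TMPRSS4, relatives of matriptase and hepsin, were below the floor on both arrays.

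None of the inhibitors on the list passed 2-fold under the reported setting. SPINT1, the main inhibitor of matriptase, read 332.7 on the parental and 617.9 on the K-ras array, a log2 ratio of 0.89. SPINT2, which inhibits matriptase, prostasin and hepsin, had 1396.9 and 2158.3, a log2 ratio of 0.63. Both inhibitors were thus somewhat higher where PRSS8 was higher, but by less than 2-fold under the reported setting. Scaling on maintenance genes raised log2 ratios that are not bounds by 0.20, enough to take SPINT1 past 2-fold. SERPINB5, a serpin of epithelial cells also called maspin, had a log2 ratio of -0.73, from 2157.1 to 1303.5. In all 6 of 14 inhibitors on the array had a ratio, with a median of 0.52, and 3 of the 6 were bounds. SPINK5, the kallikrein inhibitor of skin, was not analysed here.

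The receptors of this protease system were at low signals. F2R, the thrombin receptor, read 37.3 on the parental and 17.2 on the K-ras array with an _x_at probe set, and F2RL2 and F2RL3 were below the floor on both arrays too. Of the G proteins and effectors that such receptors use, 7 had a ratio. None was at least 2-fold higher, against 9.97% of all genes, and 1 was lower, against 14.4%. That gene was GNAQ, a G protein subunit that couples receptors to phospholipase C, at 353.3 and 158.2. Its log2 ratio was -1.16, but its other probe set gave 0.02, and the value was -0.96 with scaling on maintenance genes. The log2 ratio of GNA11, its close relative, was 0.33, also uncertain as an _x_at value, and 5 other probe sets of GNA11 gave 0.03 to 0.85.

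Substrates went both ways, with 4 of 15 at least 2-fold higher and 5 lower, against 9.97% and 14.4% of all genes. Their median log2 ratio was -0.03. The epithelial sodium channel subunit SCNN1A, a channel that prostasin activates, was 3.09-fold lower, from 293.4 to 95. The other subunits SCNN1B and SCNN1G were below the floor on both arrays. CDCP1, a membrane protein cut by matriptase, was higher by the same factor of 3.09, from 269.5 to 834.0. The adhesion protein EPCAM, also cut by matriptase, was lower, from 994.2 to 477.5, a log2 ratio of -1.06 that was -0.86 with scaling on maintenance genes.

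The growth factor branch showed differences in single genes. PLAUR, the receptor of urokinase, had signals of 310.8 and 749.8, a log2 ratio of 1.27, but its other probe sets gave -0.03 to 1.14. Urokinase itself, PLAU, which matriptase can activate, had a log2 ratio of -0.62, and -0.81 in another probe set. MET, the receptor of the hepatocyte growth factor that matriptase and hepsin activate, had 1032.6 and 320.1, a 3.23-fold lower value, with other probe sets at log2 ratios of -0.73 to -0.68. HGF was below the floor on both arrays, with 11.4 and 41.2. MST1R, the receptor of the related factor MST1, had a log2 ratio of 0.65. LAMB3, a chain of laminin-332, was 2.59-fold higher, and IL1B, whose product is a cytokine precursor, was 5.04-fold higher, with the same log2 ratio of 2.33 in both of its probe sets.

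The desmosomal and skin substrates of kallikreins were mixed. DSG1, DSC1, CDSN and FLG, proteins of the outer skin, were below the floor on both arrays, with signals from 2.9 to 16.9. DSG2, the desmoglein of simple epithelium, was 12.6-fold lower, from 1587.0 to 126.0. DSC3 had a log2 ratio of -1.04, which was -0.84 with scaling on maintenance genes and -0.94 under quantile normalization. Another probe set of DSC3 gave -0.86. DSC2 was below the floor with K-ras alone, from 65.9 to 38.3, a bound at a log2 ratio of -0.49 on an _x_at probe set. DSG3 had 0.41, and the cadherin CDH1 -0.03, with -0.51 in another probe set of CDH1.

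**Figure D3:**
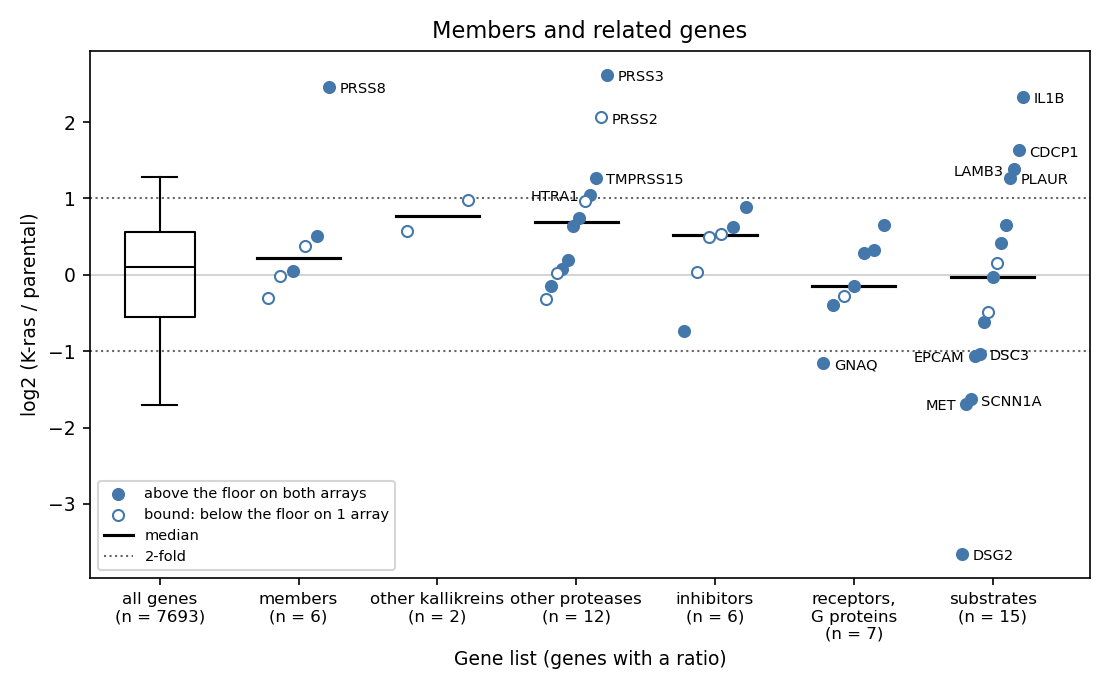
The log2 ratio of K-ras to parental signal for all genes (box from the lower to the upper quartile, whiskers from the 5th to the 95th percentile), for the members and for the 5 lists of related genes, where each point is a gene, open points are bounds and bars are medians. PRSS8 at 2.46 is the only member beyond the 2-fold lines, PRSS3 at 2.62 has the highest ratio and DSG2 at -3.65 the lowest among the related genes.

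Across the settings tried, PRSS8 was the single member that was at least 2-fold higher wherever it had a ratio. KLK5 had a positive log2 ratio under the 9 alternatives that gave one, from 0.31 to 0.70, always under 2-fold. KLK8 ranged from 0.38 to 1.02. KLK10 ranged from -0.42 to 0.25, its sign turning when _x_at and _s_at probe sets were left out, since only the probe set 215808_at then remains.

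**Figure D4:**
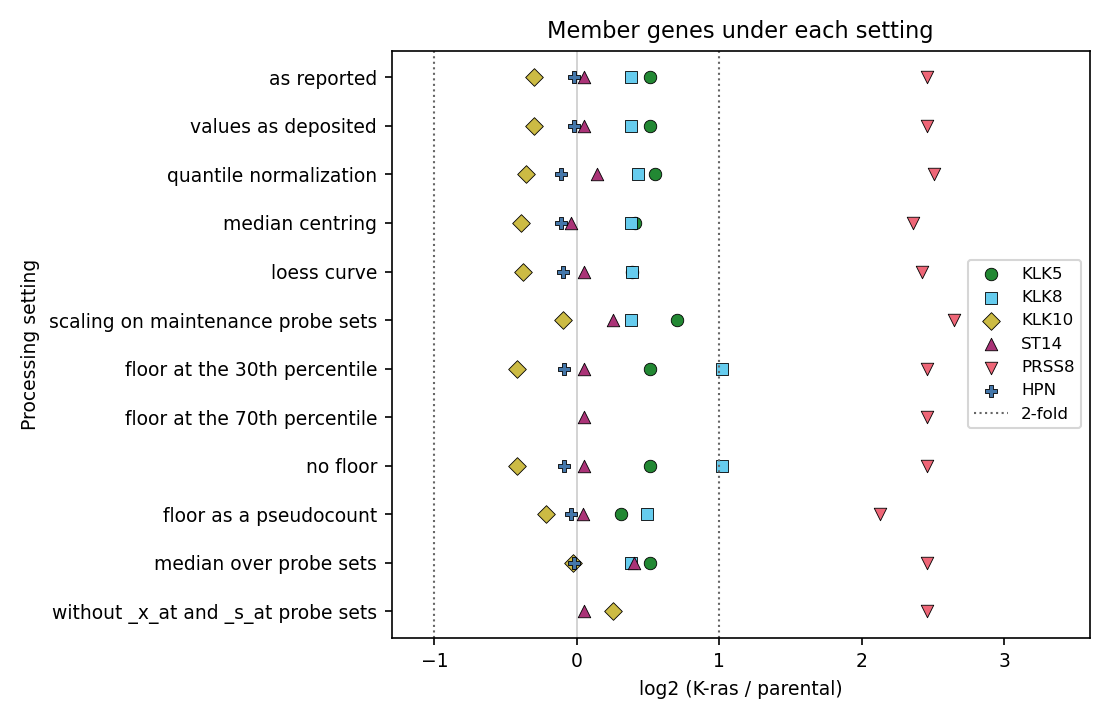
The log2 ratio of K-ras to parental signal of the 6 member genes with a ratio under the reported setting and 11 alternatives, with dotted lines at 2-fold. PRSS8 stays between 2.13 and 2.65, while KLK8 reaches 1.02 under 2 settings and the other members stay inside the 2-fold lines.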

How the data were processed

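The deposited table holds 1 linear intensity per probe set and array for 22283 probe sets, 68 of them controls. Which software the authors used is not given in these sources. With 2% trimmed at each end, the mean was 150.06 in both deposited columns, so the intensities were taken as already scaled. Per the labels, cRNA followed the manufacturer's procedure. The annotation pairs 19065 non-control probe sets with 1 symbol, 1043 with several and 2107 with none listed. By gene number 19053 of the 19065 matched RefSeq (GRCh38.p14), with no symbol changed.

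Both columns were brought to a common trimmed mean. The floor was the higher median over non-control probe sets. A gene was represented by its probe set with the highest mean log2 signal, and called at 2-fold. Below the floor on 1 array, ratios are bounds. No test was possible with 1 array per line, and the number of arrays limits precision. Every member is named, with each related gene past 2-fold and a fixed set of partners. Further genes, chosen after their values were seen, show what a count holds. Members, lists and 12 alternatives (scaling, floor, probe set choice, 3-fold threshold) were chosen with earlier results of these data known. The script was tested on simulated data, with large changes in bright probe sets only and noise below the SD between probe sets. That test does not show how well differences near the floor or near 2-fold are recovered. Python 3.11.15, numpy 2.4.6, pandas 2.3.3 and statsmodels 0.14.6 were used.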

Additional observations from a re-analysis of the deposited data

How the results depend on the processing

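No paired analysis was possible because each line has 1 array. The count of member genes at least 2-fold higher, 1 as reported, became 2 with a floor at the 30th percentile and with no floor, and that of member probe sets became 3 and 4. No setting gave a member at least 2-fold lower. KLK8 moved to a log2 ratio of 1.02 under both settings, and KLK10 to 0.25 without _x_at and _s_at probe sets. The other 4 members with a ratio moved by less than the SD between probe sets wherever they had one. With the floor at the 70th percentile only PRSS8 and ST14 had a ratio.

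Over all genes the counts of 767 higher and 1109 lower were 1363 higher with the 30th percentile floor, 451 and 632 with the 70th, 2428 and 1797 with no floor, 469 higher with the pseudocount, 460 and 721 without _x_at and _s_at probe sets, and 185 and 480 at 3-fold. Of related genes, 8 were higher and 6 lower as reported. The higher count was 16 with the 30th percentile floor, 24 with no floor, 4 without _x_at and _s_at probe sets and 4 at 3-fold. The lower count was 3 with maintenance scaling, with the pseudocount, with the median over probe sets and at 3-fold. Signal over background limits every kallikrein value here.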
